A study of Mus musculus with 12 samples.

Results

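Genes that act when a cell copies its DNA and genes that act when it divides were followed through RNA-Seq libraries of whole BM from WT mice and from 3 genotypes carrying mutations found in acute myeloid leukemia. The set held 50 genes of the 12199 in the deposited table, found there by symbol from a given list and kept as 25 DNA replication genes and 25 mitosis genes. All 50 were present in the table and all 50 passed the expression filter that left 12175 genes for testing.

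The 4 groups were on the C57BL/6 background. The paper obtained WT mice from a core facility, whereas the mutants came from its own crosses. Source and genotype therefore cannot be told apart in the comparisons with WT. DF mice had the genotype Dnmt3aFlox/+:MxCre with Flt3 ITD/+, TF mice were Tet2+/- with Flt3ITD/+, and TFD mice joined Tet2+/- and Flt3ITD/+ to Dnmt3aFlox/+ with MxCre. DNMT3A adds methyl groups to DNA, TET2 oxidises them, and the internal tandem duplication (ITD) makes the growth factor receptor FLT3 signal without its ligand. By the study's methods mice of all groups, also WT, received poly(I:C) when 8 to 10 weeks old. Analysis followed after another 8 to 9 weeks. Poly(I:C) induces the interferon response that switches on Mx-Cre, which acts in blood cells and also in other tissues. Each allele was heterozygous, so a normal copy of each gene remained. The labels name the source as whole BM mononuclear cells and describe the mutant tissue as leukemic, and globin transcripts were depleted before library preparation. The paper itself reports no early disease in DF or TF mice, and an aggressive leukemia in TFD mice over that time. There were 3 WT, 3 DF, 3 TF and 2 TFD libraries. TFD replicate 3 was not analysed here. The study's statistics describe data points as single animals in general terms, and whether that covers the RNA-Seq libraries is not stated, so p values measure the spread between libraries.

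In a dividing cell the MCM helicase is loaded on origins by CDC6 and CDT1, and DNA polymerases then copy the strands with nucleotides made by ribonucleotide reductase and thymidylate enzymes. Transcription of these genes is driven mainly by E2F factors as cells enter S phase. Later the cyclin B kinase, the Aurora and Polo kinases and the kinesins build the spindle and separate the chromosomes, and many of their genes are switched on together through CHR and CCAAT promoter elements. In BM most such transcripts come from progenitors, from erythroid and B cell precursors and from early granulocytes, while mature neutrophils no longer divide.

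Library totals ran from 8274153 to 15900904 counts, and the lowest Spearman correlation between any 2 libraries over all genes was 0.936. Among the targeted genes, Dnmt3a had 30.9, 50.4 and 57.8 CPM (counts scaled to library size) in WT and 46.4, 40.2 and 38.0 CPM in DF, and Tet2 had 152, 169 and 148 CPM in WT and 136, 199 and 205 CPM in TF. Neither locus was called lower where it was heterozygous by the edgeR test used below. Dnmt3a stood at log2 fold changes of -0.15 in DF and 0.29 in TFD (adjusted p = 0.578 and 0.382), and Tet2 at 0.21 in TF and 0.25 in TFD (0.330 and 0.318). Dnmt3a was called higher in TF (0.58, adjusted p = 0.0444) and Tet2 in DF (0.49, adjusted p = 0.0261). Flt3 had 30.0, 22.5 and 20.8 CPM in WT. DF libraries had 59.2, 47.9 and 33.0 CPM, TF libraries 65.4, 55.4 and 71.3 CPM and TFD libraries 58.9 and 130.4 CPM. It was called higher in DF, TF and TFD, by 0.93, 1.38 and 1.94, and the TFD value was 1.27 without TFD replicate 2. These counts cover the whole gene, and reads over the deleted exons were not separated. TF replicate 3 stood apart in its marker genes: its 14 erythroid markers summed to 2353 CPM, against 769.8 and 975 CPM in the other TF libraries and 2781 to 3427 CPM in WT. Counts in TF are also given without it.

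Levels between genes were compared per length, as RPKM, the CPM value divided by exon length in kilobases. Over all libraries the replication genes spanned 9.94 RPKM for E2f1, which encodes a transcription factor of the S phase program, to 238 RPKM for Pcna, the sliding clamp of the polymerases. The mitosis genes spanned 14.6 RPKM for Foxm1, a transcription factor of late cell cycle genes, to 254 RPKM for Mki67, which encodes the proliferation antigen Ki-67. The subsets had close medians, at 36.6 RPKM for replication and 38.2 RPKM for mitosis. In WT, Mki67 stood at 295 ± 9.28 RPKM (SD, n = 3), Top2a, the topoisomerase that untangles chromosomes, at 253 ± 21.6 RPKM and Pcna at 250 ± 25.4 RPKM. Top2a and Pcna were closer to each other than the spread between their libraries. Mcm6, a helicase subunit, followed at 138 ± 11.9 RPKM and Rrm1, the large subunit of ribonucleotide reductase, at 126 ± 9.35 RPKM. Cdc6 stood at 22.6 ± 0.658 RPKM in WT, above 10 other members.

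**Figure D1:**
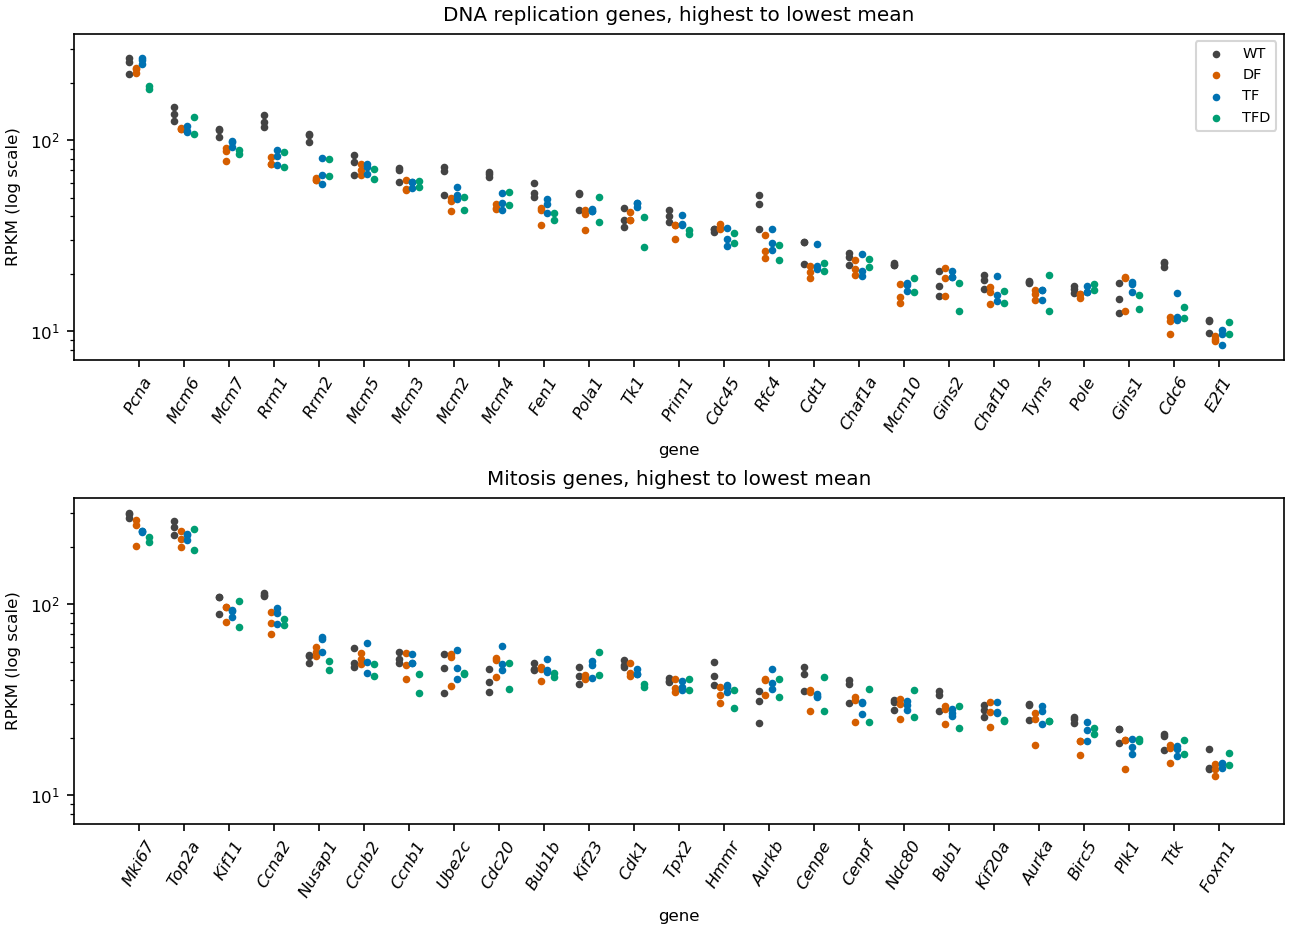
RPKM (log scale) of each member in each of the 11 libraries, with replication genes above and mitosis genes below, ordered by mean and coloured by genotype. Mki67, Top2a and Pcna have the highest levels, and the WT points of Cdc6, Rrm1 and Rrm2 lie above the points of every mutant library.

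The calls among the members were nearly all downward, and more of them were replication genes than mitosis genes. In DF, 10 of 25 replication genes fell and none rose, with a median log2 fold change of -0.26 over the subset, where the median of all genes tested was 0.05. Of all genes, 16.6% were called lower in DF and 21.0% higher. In TF, 6 of 25 fell and none rose (median -0.19, all genes 0.02), where 15.6% of all genes were called lower and 19.0% higher. In TFD, 10 of 25 fell and none rose (median -0.28, all genes 0.01), where 11.6% of all genes were called lower and 14.7% higher. Of the mitosis genes 3 fell in DF (median -0.14), 1 fell and 1 rose in TF (median -0.09), and 4 fell in TFD (median -0.18). The mitosis genes called lower make up 12% of the subset in DF and 4% in TF, which is below the share of all genes, and 16% in TFD. For the replication genes these shares are 40%, 24% and 40%. Calls are at an adjusted p under 0.05 over 12175 genes in edgeR's quasi-likelihood test, and the difference between the subsets was not itself tested. The 3 comparisons share the same WT libraries, so their calls are not independent of each other. In bulk RNA, fewer cells of a dividing type and less RNA per cell cannot be told apart.

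Fold changes were below 0 in all 3 genotypes for 19 of 25 replication genes and 15 of 25 mitosis genes, that is 76.0% and 60%, and for 35.4% of all genes tested. The replication genes called lower in each genotype numbered 6, namely Mcm4, Mcm10, Cdc6, Rrm1, Rrm2 and Rfc4, and of the mitosis genes Ccna2 alone was. Of all genes, 7.90% were called lower in each. Mcm2, Mcm7 and Fen1 were called in DF and TFD, Cdt1 in DF and Pcna in TFD. Hmmr was called in DF and TFD, Birc5 in DF, and Cdk1 and Ccnb1 in TFD. The other 14 replication genes and 20 mitosis genes were called lower in no genotype, and 1 of these mitosis genes, Aurkb, was called higher in TF.

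**Figure D2:**
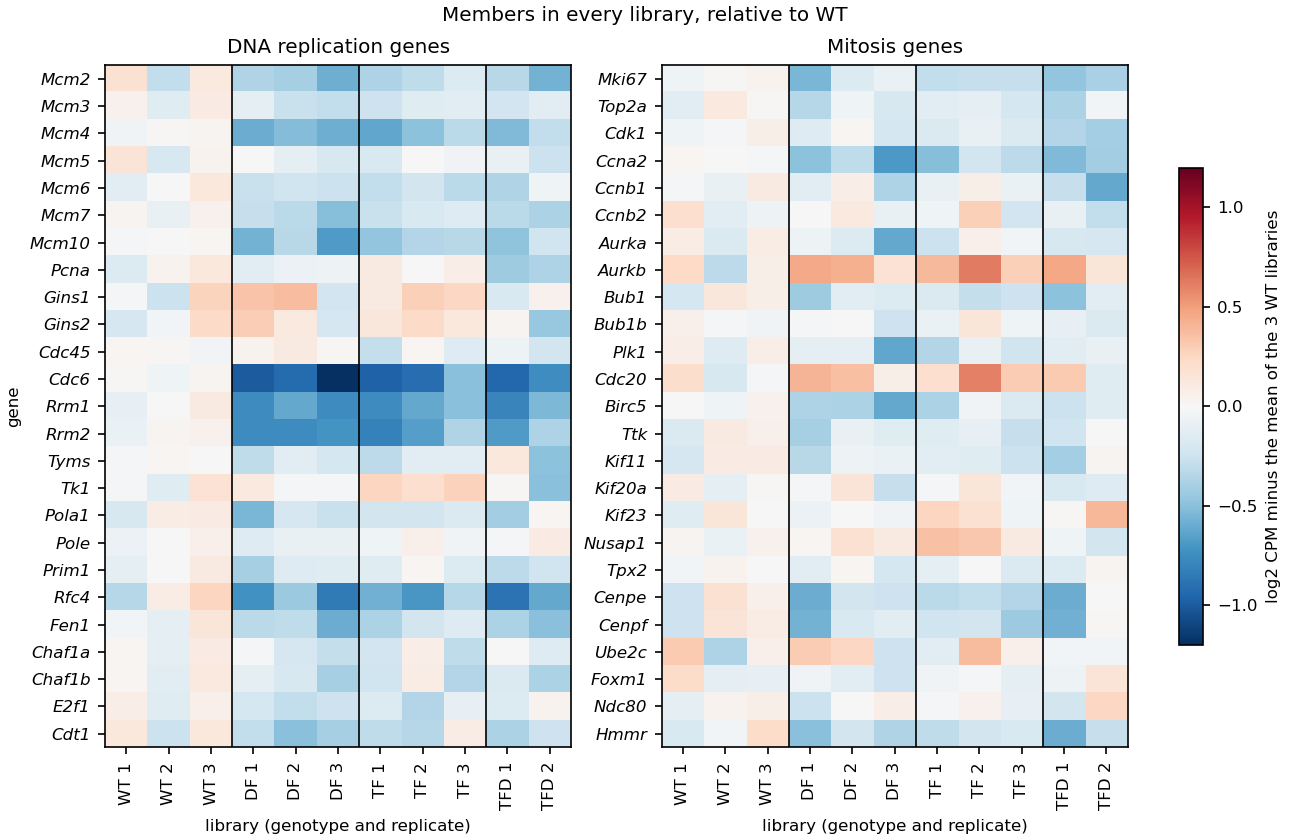
Log2 CPM of each member in each library minus the mean of the 3 WT libraries, with replication genes on the left, mitosis genes on the right and blue for lower values. Cdc6, Rrm1, Rrm2, Rfc4 and Mcm4 are blue in all 8 mutant libraries, and Aurkb and Cdc20 are red in most of them.

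Cdc6, the loader of the helicase on origins (chr11:98907889-98923942, plus strand, mm10), fell most. It had 107, 103 and 109 CPM in WT. DF libraries had 53.1, 55.7 and 45.3 CPM, TF libraries 53.9, 56.1 and 75.0 CPM and TFD libraries 55 and 63.4 CPM. Every mutant library lay below every WT library, and the highest mutant value was that of TF replicate 3. Its level was 0.485 times that of WT in DF, 0.581 times in TF and 0.558 times in TFD. On the log2 scale these are -1.04 ± 0.13 (SE), -0.78 ± 0.13 and -0.84 ± 0.15, with adjusted p of 9.55e-05, 0.000832 and 0.00149 in edgeR.

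Both subunits of ribonucleotide reductase, which makes deoxynucleotides, fell as well. Rrm1 (chr7:102441695-102469771, plus strand) had 469, 501 and 544 CPM in the WT libraries, against 299, 329 and 299 CPM in DF, 298, 329.5 and 357 CPM in TF and 291 and 347 CPM in TFD. The groups did not overlap, and Rrm1 changed by -0.71 ± 0.11 in DF, -0.62 ± 0.11 in TF and -0.66 ± 0.13 in TFD on the log2 scale (edgeR adjusted p = 0.000453, 0.00133 and 0.00241). Rrm2 (chr12:24708254-24714146, plus strand), the regulated small subunit, had 215, 233 and 235 CPM in WT. DF libraries had 135, 135 and 138 CPM, TF libraries 129, 144 and 176 CPM and TFD libraries 142 and 175 CPM. Again no mutant library reached a WT library, and its log2 changes were -0.74 ± 0.12 in DF, -0.60 ± 0.12 in TF and -0.52 ± 0.14 in TFD (adjusted p = 0.000539, 0.00249 and 0.0142). The thymidylate enzymes beside them were not called. Tyms, which makes thymidylate, stood at -0.21, -0.19 and -0.15 on the log2 scale in the order DF, TF, TFD without a call, and the salvage kinase Tk1 had 0.01, 0.24 and -0.22.

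Of the helicase genes, Mcm4 (chr16:15623897-15637400, minus strand) had 231, 239.8 and 244 CPM in the WT libraries, against 157, 166 and 159 CPM in DF, 155, 169 and 189.9 CPM in TF and 165 and 194 CPM in TFD. All mutant libraries were below WT, with log2 changes of -0.57 ± 0.10 in DF, -0.48 ± 0.10 in TF and -0.41 ± 0.11 in TFD (adjusted p = 0.000995, 0.00343 and 0.0194). Mcm10, which helps start the helicase, fell in DF, TF and TFD by log2 changes of -0.52, -0.39 and -0.36 with adjusted p of 0.00290, 0.0161 and 0.0473. Mcm2 (chr6:88883474-88898780, minus strand) had 243, 175 and 232 CPM in WT. DF libraries had 167, 163 and 143 CPM, TF libraries 166, 173 and 192 CPM and TFD libraries 171 and 145 CPM. WT replicate 2 lay close to the mutants, and Mcm2 fell in DF (-0.46 ± 0.13, adjusted p = 0.0149) and TFD (-0.46 ± 0.15, adjusted p = 0.0357), while the TF value was -0.29 ± 0.13 (adjusted p = 0.0986). Mcm7 fell in DF (-0.37) and TFD (-0.35). The remaining subunits were not called: Mcm3 was at -0.22, -0.18 and -0.19 in DF, TF and TFD, Mcm5 at -0.11, -0.08 and -0.18, and Mcm6 at -0.26, -0.28 and -0.20. So the 6 subunits of 1 hexamer did not all pass the test, and differences between the subunits were not tested.

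Among the other initiation genes, Cdt1, the partner of CDC6 at origins, fell in DF (-0.41 ± 0.14, adjusted p = 0.0339) and was not called in TF (-0.19) or TFD (-0.33). Cdc45, a helicase cofactor, stood at 0.05, -0.13 and -0.14 in DF, TF and TFD. Gins1 stood at 0.17, 0.19 and -0.09 and Gins2, a subunit of the same complex, at 0.07, 0.15 and -0.20, with the widest standard errors of the replication genes (up to 0.20). E2f1 was at -0.26, -0.21 and -0.07 with no call.

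At the replication fork Rfc4, a subunit of the loader of the PCNA clamp (chr16:23113948-23127730, minus strand), had 41.5, 56.3 and 63 CPM in the WT libraries, against 32.0, 38.7 and 29.3 CPM in DF, 35.4, 32.6 and 41.6 CPM in TF and 28.6 and 34.4 CPM in TFD. TF replicate 3 overlapped WT replicate 1 and the other mutant libraries lay below WT. Rfc4 fell in each genotype, with log2 changes of -0.68 ± 0.17 in DF, -0.55 ± 0.16 in TF and -0.77 ± 0.19 in TFD (adjusted p = 0.00641, 0.0202 and 0.00911). In the GENCODE annotation 13.2% of its exon length overlaps Eif4a2 on the opposite strand, and whether the counting used strand is not given in the sources used here. Fen1, the flap nuclease of lagging strands, fell in DF (-0.41, adjusted p = 0.0131) and TFD (-0.45, adjusted p = 0.0212), with 85.9% of its exon length facing an annotated antisense transcript.

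Pcna separated TFD from the other genotypes in its values. It had 279.7, 324 and 342 CPM in WT. DF libraries had 286, 298 and 301 CPM, TF libraries 339, 315 and 332 CPM and TFD libraries 233 and 242 CPM. Both TFD libraries were below all 9 others. Pcna fell in TFD (chr2:132249286-132253180, minus strand, -0.41 ± 0.11, adjusted p = 0.0170), and was not called in DF or TF (-0.10 ± 0.10 and 0.06 ± 0.10, adjusted p = 0.467 and 0.657). The TF value changed sign with an offset for gene length and without WT replicate 1. Compared directly, TF was higher than TFD by 0.47 ± 0.11 on the log2 scale with an adjusted p of 0.216 in edgeR, and DESeq2 called this difference (0.47 ± 0.11, adjusted p = 0.00738). The polymerase genes were not called. Pola1, the catalytic subunit of polymerase alpha, was at -0.34, -0.21 and -0.19 in DF, TF and TFD, its primase partner Prim1 at -0.23, -0.09 and -0.28, and Pole, the leading strand polymerase, at -0.11, -0.01 and 0.04. Chaf1a and Chaf1b, which load histones behind the fork, lay between -0.28 and -0.08 without a call.

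**Figure D3:**
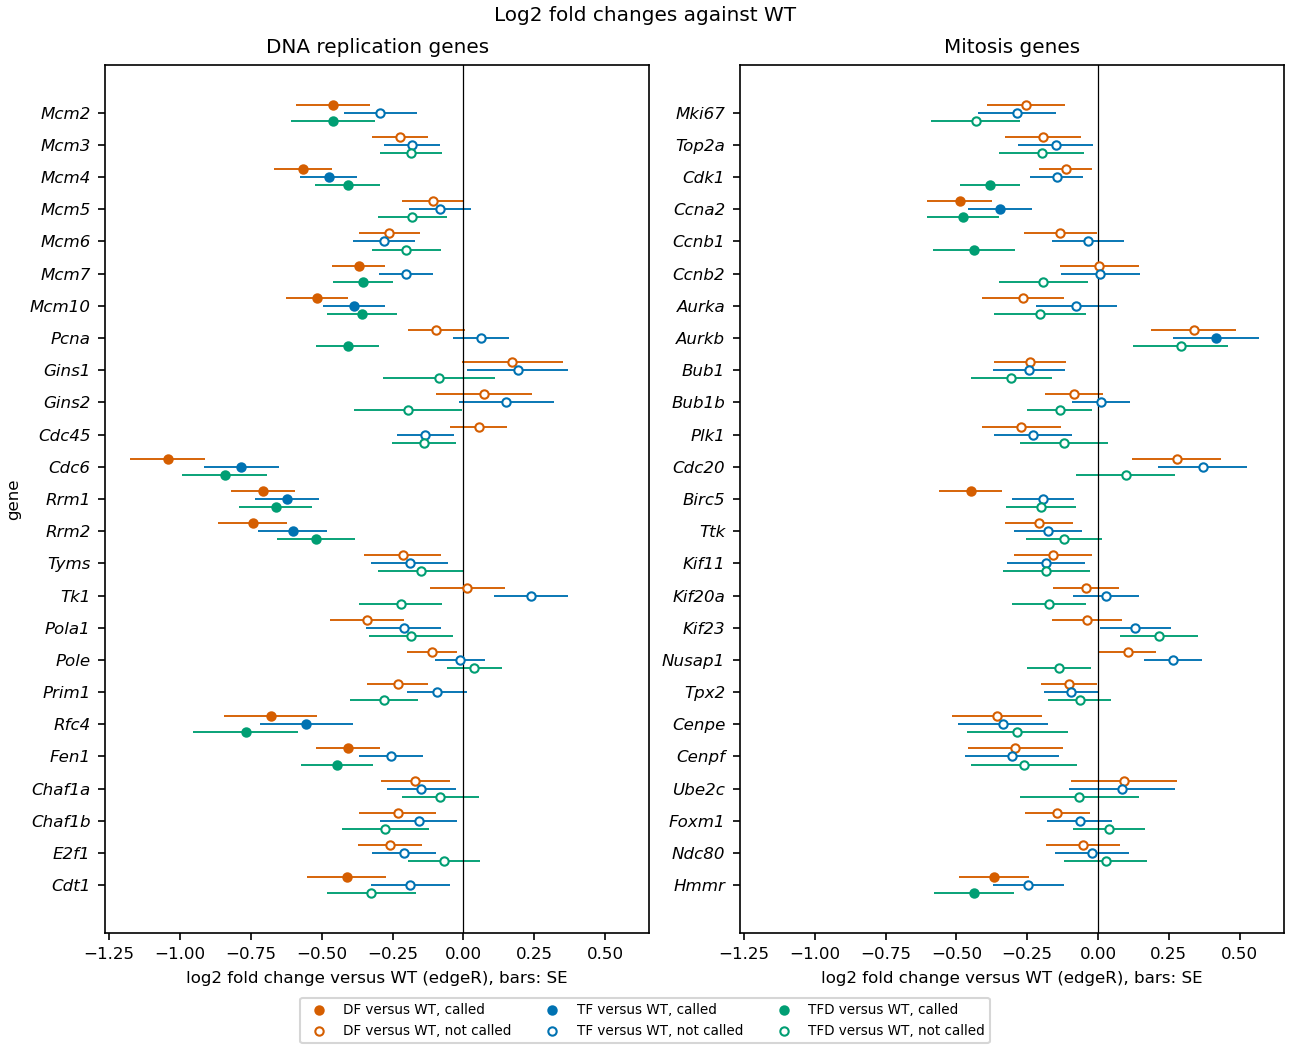
Log2 fold change of each member against WT in DF, TF and TFD from the edgeR fit, with bars for the standard error and filled points for members called at an adjusted p under 0.05. The filled points are concentrated in Cdc6, Rrm1, Rrm2, Rfc4, Mcm4 and Mcm10 on the left and in Ccna2 on the right.

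Among the mitosis genes, the cyclin that spans S phase and G2, Ccna2 (chr3:36564865-36571996, minus strand), was the member called in each genotype. It had 322, 316 and 312 CPM in the WT libraries, against 225, 256 and 196 CPM in DF, 222, 271 and 255 CPM in TF and 219 and 237 CPM in TFD. WT libraries were tightly grouped above all mutant libraries, and Ccna2 changed by -0.49 ± 0.11 in DF, -0.35 ± 0.11 in TF and -0.48 ± 0.13 in TFD on the log2 scale (adjusted p = 0.00513, 0.0314 and 0.0158). Exosc9 overlaps 18.1% of its exon length on the opposite strand.

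The kinase of mitotic entry, Cdk1 (chr10:69336635-69352912, minus strand), had 135, 138 and 147 CPM in WT. DF libraries had 125, 142 and 121 CPM, TF libraries 124, 132 and 124 CPM and TFD libraries 109.8 and 105 CPM. TFD was lowest, and Cdk1 fell there (-0.38 ± 0.10, adjusted p = 0.0181) but was not called in DF or TF (-0.11 ± 0.09 and -0.15 ± 0.09, adjusted p = 0.357 and 0.241). Its partner Ccnb1 (chr13:100778739-100786486, minus strand) had 120.4, 115 and 131 CPM in WT. DF libraries had 111, 128 and 94.2 CPM, TF libraries 115, 128 and 115 CPM and TFD libraries 100.5 and 79.5 CPM. Both TFD libraries lay below WT while DF and TF overlapped it, and Ccnb1 fell in TFD (-0.44 ± 0.14, adjusted p = 0.0404) with values of -0.13 in DF and -0.03 in TF (adjusted p = 0.433 and 0.854). Ccnb2, the other B cyclin, stood at 0.01, 0.01 and -0.19. Foxm1 stood at -0.14, -0.07 and 0.04 in DF, TF and TFD.

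Ki-67 transcript was lower in every mutant library than in every WT library without a call. Mki67 (chr7:135689788-135716379, minus strand) had 2868, 2989 and 3052 CPM in the WT libraries, against 2032, 2642 and 2805 CPM in DF, 2413, 2443 and 2456 CPM in TF and 2143 and 2262 CPM in TFD. Its log2 fold changes were -0.25 ± 0.14 in DF, -0.29 ± 0.14 in TF and -0.43 ± 0.16 in TFD (adjusted p = 0.164, 0.124 and 0.0573). DESeq2 called it in each genotype (adjusted p of 0.0333, 0.0296 and 0.00417). With an offset for gene length the DF value became 0.02 (adjusted p = 0.917), and Mki67 is among the longest members with 10075 bases of exon. Top2a (chr11:98992947-99024189, minus strand) had 1202, 1427 and 1328 CPM in WT. DF libraries had 1041, 1266 and 1152 CPM, TF libraries 1204, 1224 and 1138 CPM and TFD libraries 1009.9 and 1289 CPM. Its groups overlapped and it was not called, at -0.19 ± 0.13 (adjusted p = 0.267), -0.15 ± 0.13 (adjusted p = 0.402) and -0.20 ± 0.15 (adjusted p = 0.358).

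At the centromere and spindle, Birc5, the survivin subunit of the chromosomal passenger complex, had 85.5, 82.0 and 88.1 CPM in WT (chr11:117849237-117855743, plus strand). DF libraries had 66, 65.5 and 55.7 CPM, TF libraries 65.4, 82.7 and 75.2 CPM and TFD libraries 71.2 and 77.2 CPM. Only TF replicate 2 reached the WT range among the 8 mutant libraries, and Birc5 fell in DF (-0.45 ± 0.11, adjusted p = 0.00713). It was at -0.20 in both TF and TFD (adjusted p = 0.187 and 0.256). The kinase of that complex, Aurkb (chr11:69045643-69051662, plus strand), rose in TF, the single rise among the members. Aurkb had 68.7, 46.9 and 60.9 CPM in the WT libraries, against 79.5, 78.4 and 65.6 CPM in DF, 76.2, 89.3 and 70.8 CPM in TF and 80.1 and 64.3 CPM in TFD. TF lay above WT without overlap (0.42 ± 0.15, adjusted p = 0.0481), DF was at 0.34 (adjusted p = 0.0958) and TFD at 0.29 (adjusted p = 0.222). Hmmr, a spindle assembly factor (chr11:40701388-40733437, minus strand), had 148, 165 and 196 CPM in WT. DF libraries had 119, 144 and 131 CPM, TF libraries 136, 144 and 149 CPM and TFD libraries 112 and 139 CPM. TF replicate 3 lay level with WT replicate 1 and the others below WT, and Hmmr fell in DF (-0.37 ± 0.12, adjusted p = 0.0355) and TFD (-0.44 ± 0.14, adjusted p = 0.0364) and was at -0.25 in TF (adjusted p = 0.145).

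No other mitosis gene was called. Of the checkpoint genes, Bub1 was at -0.24, -0.24 and -0.31 in DF, TF and TFD, Bub1b at -0.09, 0.01 and -0.14, and the kinase gene Ttk at -0.21, -0.18 and -0.12. The entry kinases Aurka and Plk1 were at -0.27, -0.08 and -0.21 and at -0.27, -0.23 and -0.12. Cdc20, the activator of the anaphase promoting complex, was at 0.28, 0.37 and 0.10, and Ube2c, the ubiquitin conjugating enzyme of that complex, at 0.09, 0.09 and -0.07. The centromere genes Cenpe, Cenpf and Ndc80 were at -0.36, -0.34 and -0.29, at -0.29, -0.30 and -0.26, and at -0.05, -0.02 and 0.03. The motor Kif11, which pushes the spindle poles apart, was at -0.16, -0.18 and -0.18, the cytokinesis motors Kif20a and Kif23 at -0.04, 0.03 and -0.17 and at -0.04, 0.13 and 0.21, and the spindle factors Nusap1 and Tpx2 at 0.10, 0.26 and -0.14 and at -0.10, -0.09 and -0.06. A median standard error of 0.13 in DF and TF and 0.14 in TFD bounds what could be called among these genes, so a missed threshold does not show equal levels. Kif20a overlaps Cdc23 over 32.6% of its exon length on the opposite strand.

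How far the calls rest on single libraries differed between members. The 19 alternatives do not bear equally on a call. Some leave out a library of a genotype outside the comparison, and the fit without the filter adds 24 genes. The Cdc6 and Rrm1 calls held in each genotype under all 19 alternatives, as did the calls of Mcm2, Mcm4, Mcm7, Mcm10, Rrm2, Rfc4, Fen1, Ccna2 and Birc5 in DF and of Mcm4 and Rrm2 in TF. In DF, the Cdt1 call was lost without WT replicate 1 or 3 or DF replicate 2 or 3 (highest adjusted p over all alternatives 0.119), and the Hmmr call without WT replicate 2 or 3 or DF replicate 1 or 3 (0.11). In TF, Mcm10 lost its call without TF replicate 1 (0.0729), Rfc4 without WT replicate 2 or 3 or TF replicate 1 or 2 (0.0807), Ccna2 without any 1 WT library or TF replicate 1 or 3 (0.145), and Aurkb without WT replicate 2 or 3, any 1 DF library or TF replicate 1 or 2 (0.182). The Aurkb call was also lost with library totals, with RLE factors and in a fit of TF and WT alone. The same held with an offset for gene length. The Ccna2 call was lost with an offset for GC content. Mcm2 became called in TF without WT replicate 2 and with the GC offset. Leaving out a library also made other members called lower. Mcm6 became called in DF and TF without WT replicate 1 or either TFD library, Pola1 and Cenpe did in DF under the same omissions, and in DF Bub1 did without WT replicate 1 and Mcm3 without WT replicate 2.

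In TFD, with 2 libraries, more calls depended on a single one. Without TFD replicate 1, Mcm4, Rrm2, Rfc4 and Ccna2 lost their calls (highest adjusted p 0.15, 0.129, 0.0843 and 0.0942). Tyms and Tk1 became called lower without that library. Fen1 and Cdk1 lost theirs without WT replicate 3 or TFD replicate 2 (0.112 and 0.0862), and Pcna without WT replicate 3 or either TFD library (0.082). Mcm7 lost its call without WT replicate 1 or 3 or either TFD library (0.118), Mcm2 without WT replicate 1 or 3, DF replicate 2 or TFD replicate 2 (0.199), and Hmmr without WT replicate 2 or 3 or TFD replicate 1 (0.259). Ccnb1 lost its call without any 1 WT library, DF replicate 1, TF replicate 1 or TFD replicate 2 (0.257), and Mcm10 without any 1 WT or TF library, DF replicate 1 or TFD replicate 1 (0.285). When TFD and WT alone were fitted, Mcm2, Mcm4, Mcm7, Mcm10, Pcna, Cdk1, Ccnb1 and Hmmr lost their calls. With library totals Mcm2, Mcm10 and Ccnb1 did, and with the GC offset Ccnb1 did. Cenpe became called in TFD without TFD replicate 2. Mki67 became called in TFD without DF replicate 1 or 3. No direction was reversed among the called members.

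Counting genes whose libraries did not overlap with WT gave 16 of 25 replication genes lower in DF, 9 in TF and 13 in TFD. Over all genes these shares were 22.4%, 22.9% and 23.4%. For the mitosis genes the counts were 4, 4 and 9 of 25. Tk1, Aurkb and Nusap1 lay above WT without overlap in TF, where 26.1% of all genes did. Without TF replicate 3 the counts in TF were 14 replication and 5 mitosis genes lower and 1 and 3 higher, where 29.5% of all genes lay lower and 32.2% higher.

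Averaged over the 25 replication genes, mean log2 CPM relative to the WT mean was -0.31 ± 0.07 in DF (SD, n = 3), -0.22 ± 0.07 in TF (n = 3) and -0.31 ± 0.01 in TFD (n = 2), where the WT libraries had an SD of 0.09 (n = 3). No mutant library, the highest at -0.16, reached the lowest WT library, at -0.07. For the mitosis genes the means were -0.14 ± 0.10 in DF, -0.07 ± 0.09 in TF and -0.17 ± 0.08 in TFD, with an SD of 0.04 among WT libraries. Here 1 DF and 1 TF library lay inside the WT range, and both TFD libraries lay below it. These averages are a description with no test.

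**Figure D4:**
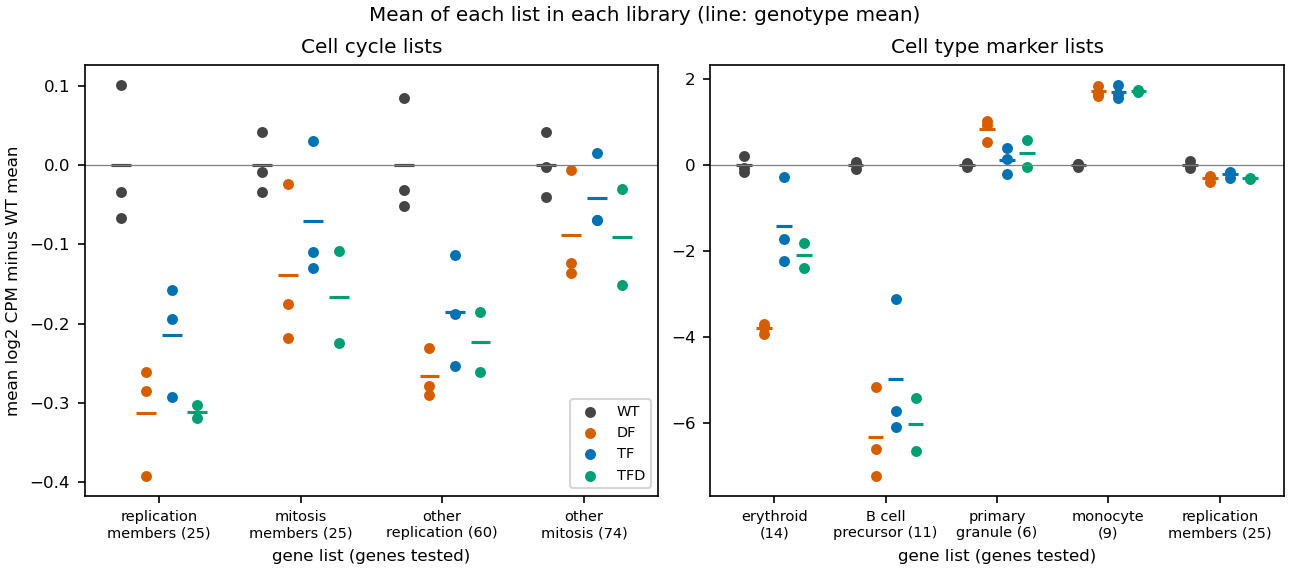
Mean log2 CPM of each gene list in each library minus its WT mean, with cell cycle lists on the left, marker lists on the right on a wider scale, and a line for each genotype mean. Replication members sit at -0.16 or below in every mutant library, mitosis members overlap WT in DF and TF, and the erythroid means are -3.80 in DF, -1.41 in TF and -2.10 in TFD.

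Other genes of the same pathways showed where the members sit. Of 60 further replication genes, 25 fell and 2 rose in DF (median -0.25), 17 fell and 2 rose in TF (median -0.18) and 15 fell and 1 rose in TFD (median -0.19). The shares that fell were 41.7%, 28.3% and 25%, against 16.6%, 15.6% and 11.6% of all genes. The origin recognition gene Orc1 fell most in DF (-1.12 ± 0.16, adjusted p = 0.000201), followed by the helicase gene Recql4 (-1.08 ± 0.21, adjusted p = 0.00175). Recql4 fell most in TF (-0.83, adjusted p = 0.00854), then Orc2 (-0.71, adjusted p = 0.000832), and in TFD Orc2, Orc5 and Orc1 fell by like amounts (-0.89, -0.89 and -0.88, adjusted p = 0.000552, 0.00259 and 0.00326). The nuclease gene Dna2 rose in each genotype, by log2 0.52, 0.65 and 0.83 (adjusted p = 0.00415, 0.00129 and 0.000625). Cdca7 rose in DF (0.38) and the clamp loader gene Rfc2 rose in TF (0.33). Without TF replicate 3 the TF counts were 16 lower and 2 higher (26.7% and 3.33%, where 16.6% and 19% of all genes were called).

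Of 74 further mitosis genes, 12 fell and 2 rose in DF (median -0.10), 8 fell and 3 rose in TF (median -0.07) and 7 fell and 2 rose in TFD (median -0.10). The shares that fell, 16.2%, 10.8% and 9.46%, were no higher than those of all genes, at 16.6%, 15.6% and 11.6%. Mybl2, the B-MYB activator of late cell cycle genes, fell in each genotype (-0.69, -0.63 and -0.58, adjusted p = 0.000883, 0.00208 and 0.00812). Cdc25b, a phosphatase that activates CDK1, fell in DF (-0.65) and TFD (-0.47), and Hjurp, the chaperone of centromeric histone, fell in TF (-1.02 ± 0.15, adjusted p = 0.000292). Racgap1, a cytokinesis regulator, rose in each genotype (0.60, 0.72 and 0.77, adjusted p = 0.00117, 0.000451 and 0.000707). Iqgap3 rose in DF (0.35) and TFD (0.42), and Psrc1 rose in TF (0.89). Without TF replicate 3 the TF counts were 5 lower and 5 higher (6.76% each, where 16.6% and 19% of all genes were called).

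Between the mutant genotypes no member was called by edgeR. DF against TF gave a smallest adjusted p of 0.232 with 1 member at an unadjusted p under 0.05, where 5.94% of all genes were called. DF against TFD gave 0.248 with 2 such members, where 0% of all genes were called, and TF against TFD gave 0.216 with 5, where 0.0164% were called. DESeq2 called 0 members in the first 2, where it called 8.81% and 2.12% of all genes, and Pcna in the last, where it called 1.04%. The number of all genes called in DF against TFD was 135 in a fit of those groups alone, 229 without TF replicate 3 and 384 without TFD replicate 1, with 0 members called in each. The members with the lowest p were Birc5 in DF against TF (-0.25 ± 0.11) and Pcna in DF against TFD (0.31 ± 0.11). In TF against TFD they were Pcna, then Nusap1 (0.40 ± 0.11), Tk1 (0.46 ± 0.15), Ccnb1 (0.40 ± 0.14) and Cdk1 (0.24 ± 0.10), each higher in TF. In that comparison 12 of 50 members lay higher in all TF libraries than in both TFD libraries, or 6 of each subset, and 0 lay lower. Over all genes 12.0% lay higher and 10.3% lower. Without TF replicate 3 these were 6 replication and 7 mitosis genes higher and 0 lower, with 18.2% and 16.6% of all genes. Cdc6 in DF against TF was -0.26 ± 0.13 (adjusted p = 0.322).

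Markers of other cell types moved alongside the members. All 14 erythroid markers fell in DF, 11 in TF and 12 in TFD, with summed levels of 2781 to 3427 CPM in WT, 367 to 496 CPM in DF, 769.8 to 2353 CPM in TF and 682 to 937 CPM in TFD. Among them Tfrc, the transferrin receptor, averaged 819 CPM in WT and 271 CPM in DF, and Car2, the red cell carbonic anhydrase, 704 and 38.7 CPM. All 11 B cell precursor markers tested fell in each genotype, with sums of 549.9 to 662 CPM in WT and 16.9 to 83.0 CPM in the mutants, and Vpreb1, Igll1, Rag1, Rag2 and Pax5 had 0 counts in at least 1 library. Of 9 monocyte markers 8 rose in each genotype, from 1827 to 2085 CPM summed in WT to 5882 to 8185 CPM in the mutants. Fn1 and F13a1 had the highest mean CPM of these markers over all libraries. Primary granule markers, which mark early granulocytes, rose for 5 of 6 in DF, 1 in TF and 2 in TFD, with sums of 5820.2 and 3983 CPM in the TFD libraries against 3050.3 to 3203 CPM in WT, and Mpo averaging 1692 CPM in WT and 3219 CPM in DF. The part of these cell types in the members' values was not tested. Among the TF libraries, replicate 3 had the highest value for 15 of 25 replication genes, Cdc6, Rrm1, Rrm2 and Mcm4 among them, and the lowest for 5, namely Mcm6, Gins2, Prim1, Chaf1a and Chaf1b. For the mitosis genes it had the highest value for 2, Mki67 and Hmmr, and the lowest for 14, Top2a and Cdk1 among them. Without TF replicate 3 the counts in TF were 6 replication genes lower and 2 mitosis genes higher, namely Aurkb (0.49, edgeR adjusted p = 0.0326) and Nusap1 (0.34, adjusted p = 0.03), and Ccna2 was no longer called (-0.36, adjusted p = 0.0539). These are 24% of replication genes lower and 8% of mitosis genes higher, where 16.6% of all genes were called lower and 19% higher.

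Of the other marker lists, T and NK markers fell for 8, 5 and 7 of 10 in DF, TF and TFD. Late neutrophil markers fell for 0, 4 and 2 of 12, and the TFD libraries stood apart from each other, at sums of 47746 and 23924 CPM against 52779 to 66548 CPM in WT. Stem and progenitor markers split, with 2 rising and 1 falling in DF, 1 and 1 in TF and 2 and 1 in TFD. Among them Cd34 stood at 37.5 CPM in WT and 130.2 to 146 CPM on average in the mutants. Kit was called in no genotype, at 77.1 CPM in WT and 91.4, 70.7 and 77.0 CPM in DF, TF and TFD. Megakaryocyte markers fell for 4 of 8 in DF and 1 in TF and rose for 1 in TFD, where TFD replicate 1 summed to 162 CPM against 40.5 to 92.0 CPM in the other libraries. Eosinophil, basophil and mast cell markers fell for 2, 5 and 2 of 10 with 1 rise in DF, plasma cell markers fell for 3, 0 and 3 of 5 with 1 rise in DF, and stromal and endothelial markers fell for 1, 0 and 0 of 5. Without TF replicate 3 the markers called lower in TF numbered 13 of 14 erythroid, 11 of 11 B cell precursor, 8 of 10 T and NK, 2 of 12 late neutrophil, 0 of 8 megakaryocyte, 5 of 10 eosinophil, basophil and mast cell, 3 of 5 plasma cell and 2 of 5 stromal and endothelial, with 8 of 9 monocyte, 1 of 6 primary granule and 1 of 10 eosinophil, basophil and mast cell markers higher and 2 stem and progenitor markers each way.

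Exon length went with the members' values. Across the 50 members, the Spearman correlation of length with log2 fold change was -0.32 in DF, -0.43 in TF and -0.03 in TFD, where it was -0.23, -0.22 and -0.09 across all genes. Genes are not replicates and these values are given with no test. The 2 TFD libraries also differed from each other along length, with the opposite sign, at a correlation of 0.49 between length and the difference of TFD replicate 2 from replicate 1 (all genes, 0.26). Cenpe and Cenpf, at 7813 and 11122 bases, were higher by 0.59 in TFD replicate 2 on the log2 scale, whereas Tk1 and Gins2, at 1369 and 1038 bases, were lower by 0.52 and 0.49. Tyms, at 3808 bases, differed by -0.62. With an offset for gene length in the model, Cdc6, Rrm1 and Rrm2 kept their calls in all 3 genotypes, while Hmmr lost its call in DF and Aurkb lost its call in TF. A mitosis member not called as reported became called higher in TF with that offset.

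**Figure D5:**
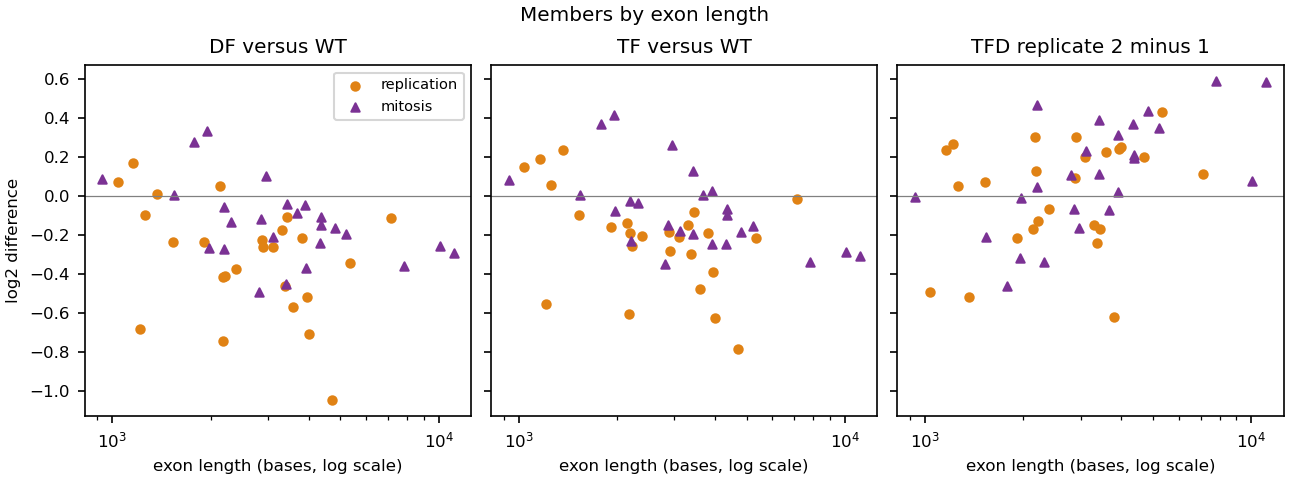
Log2 difference of each of the 50 members against exon length in bases (log scale) for DF versus WT, TF versus WT and TFD replicate 2 minus replicate 1, with circles for replication and triangles for mitosis genes. Longer members tend to lie lower in the first 2 panels (Spearman -0.32 and -0.43) and higher in the third (0.49).

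Promoter sequence, which the choice of members did not use, was compared between the subsets. Windows from 250 bases before to 50 after the start, taken from RefSeq on GRCm38.p6, were matched for 41 of 50 genes with 43 promoters. They were searched on both strands for 3 motifs, E2F (TTTGGCGC, TTTGCCGC, TTTCGCGC or TTTCCCGC), CHR (TTTGAA or TTCGAA) and CCAAT. E2F letters were in 7 of 23 replication promoters (30.4%), 1 of 20 mitosis promoters (5.0%) and 2.26% of all 32851 promoters. CHR letters were in 17.4% of replication promoters, 80.0% of mitosis promoters and 19.2% of all, and CCAAT in 60.9%, 85.0% and 37.4%. Among the 11773 promoters of genes in the deposited table, the shares were 3.88% for E2F and 37.8% for CCAAT, and 1651 held CHR letters. A match is a description of letters and not of binding.

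The upstream parts of a few promoters show these patterns for members that fell in each genotype (Cdc6, Rrm2) and for helicase subunits that were not called (Mcm6, Mcm5), with motif letters in capitals. Upstream is relative to the RefSeq start, which for Cdc6 lies inside the gene span printed above, so its stretch is within that span. Adjacent E2F matches overlap and are drawn as 1 run. They lie at chr11:98908001-98908150 on the plus strand for Cdc6, chr12:24708174-24708253 on the plus strand for Rrm2, chr1:128359706-128359825 on the minus strand for Mcm6 and chr8:75109339-75109508 on the plus strand for Mcm5.
Cdc6: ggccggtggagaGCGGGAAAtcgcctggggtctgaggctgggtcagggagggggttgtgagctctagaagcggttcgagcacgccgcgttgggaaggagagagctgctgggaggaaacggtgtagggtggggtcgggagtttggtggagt
Rrm2: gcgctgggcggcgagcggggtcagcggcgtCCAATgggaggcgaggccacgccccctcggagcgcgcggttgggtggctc
Mcm6: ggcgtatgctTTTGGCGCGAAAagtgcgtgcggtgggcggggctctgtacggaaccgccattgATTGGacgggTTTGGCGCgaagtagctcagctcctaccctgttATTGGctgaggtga
Mcm5: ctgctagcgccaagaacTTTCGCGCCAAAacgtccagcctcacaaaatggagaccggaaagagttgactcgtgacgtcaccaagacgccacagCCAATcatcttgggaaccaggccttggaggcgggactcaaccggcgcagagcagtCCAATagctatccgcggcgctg

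Of the 7 replication genes with an E2F match, 3 fell in at least 1 genotype (Cdc6, Mcm7 and Cdt1) and Mcm3, Mcm5, Mcm6 and Pola1 were not called. Of the 14 matched genes without one, 7 fell in at least 1 genotype, Rrm2 among them. The share of all genes called lower in at least 1 genotype was not computed, so these counts have no background beside them. For the mitosis genes, Cdk1 (chr10:69352913-69353062), Top2a (chr11:99024190-99024384), Mki67 (chr7:135716469-135716574) and Cdc20 (chr4:118437344-118437423), all on the minus strand, show CHR with CCAAT, and Cdk1 also the single E2F match of its subset. A match on the other strand is printed as its reverse complement.
Cdk1: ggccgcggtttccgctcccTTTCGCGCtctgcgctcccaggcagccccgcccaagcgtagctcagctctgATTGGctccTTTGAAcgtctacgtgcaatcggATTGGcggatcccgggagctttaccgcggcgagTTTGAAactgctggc
Top2a: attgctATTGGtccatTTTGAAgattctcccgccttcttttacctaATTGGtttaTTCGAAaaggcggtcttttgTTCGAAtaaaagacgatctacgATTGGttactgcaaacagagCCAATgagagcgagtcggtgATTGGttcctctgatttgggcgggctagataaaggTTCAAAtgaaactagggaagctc
Mki67: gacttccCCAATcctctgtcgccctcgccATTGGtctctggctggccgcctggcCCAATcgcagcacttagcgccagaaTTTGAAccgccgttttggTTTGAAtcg
Cdc20: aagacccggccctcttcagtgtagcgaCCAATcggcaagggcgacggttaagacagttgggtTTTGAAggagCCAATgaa

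Of these Cdk1 fell in TFD, Top2a and Mki67 were not called, and Cdc20 had positive values in all 3 genotypes without a call. Among all matched mitosis genes, 2 of 16 with a CHR match fell in at least 1 genotype. Without a CHR match 2 of 4 did, namely Birc5 and Ccnb1, again with no share of all genes to set beside them.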

How the data were processed

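RNA was extracted from whole BM cells, and the counts the authors deposited are whole reads assigned to refGene genes by featureCounts after unique alignment to mm10 with STAR (versions not given in the sources used here). The deposited log2 CPM values and the gene lengths (another unit, bases) come with them; edgeR with a prior count of 0.25 gives the deposited log2 CPM within 5e-09. RPKM was computed here from the counts. Of 12 labelled samples, 11 libraries had a column; TFD replicate 3 was not analysed here.

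Counts were tested in R 4.3.3 with edgeR 4.0.16 (TMM factors 0.924 to 1.043, quasi-likelihood F test, 1 mean per genotype, genes over 0.5 CPM in more than 3 libraries, Benjamini-Hochberg adjustment over 12175 genes). The study's methods name DESeq2, used here as an alternative (1.42.0). Standard errors come from the F statistic. Both tools were tested on simulated data. Library totals and 2 or 3 libraries a genotype limit the precision. Further alternatives were library totals, RLE factors, no filter, only the groups compared, the replicate number as a block, each library left out, and loess offsets (span 0.3) on gene length and on GC content, the last 2 chosen after seeing the data. GC was known for 96.4% of genes and for 50 of 50 members. Members and lists were chosen with earlier results of these data known. Genes named in full are the 5 largest falls and rises called in each subset and comparison with WT, with Pcna, Mcm2, Mki67, Top2a and Cdk1. From the other pathway lists the 2 largest each way were named, and from marker lists those of highest mean CPM. Python 3.11.15 and matplotlib 3.10.9 drew the figures.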

Additional observations from a re-analysis of the deposited data

How the results depend on the processing

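The replication count in DF (10) ranged from 9 to 12 when 1 library was left out. It was 13 with DESeq2, 13 with RLE factors and 15 with library totals, and no alternative moved it by more than 1.5 times. The mitosis count in DF (3) was 5 with DESeq2 and 5 with library totals, and 2 to 5 with 1 library left out, the 5 without WT replicate 1. In TF the replication count (6) was 10 with an offset for GC content and 4 to 7 with 1 library left out. The mitosis count in TF (2, with 1 higher and 1 lower) was 1 with library totals and 1 with RLE factors, each lower, 2 lower when TF and WT alone were fitted, 2 higher with the GC offset, and 0 to 2 with 1 library left out; it was 0 without WT replicate 2 or 3 or TF replicate 1. In TFD the replication count (10) was 5 when TFD and WT alone were fitted and 5 to 10 with 1 library left out, the 5 without WT replicate 3, with 6 without either TFD library. Of the 10 genes 4 kept their call without TFD replicate 1, with Tyms and Tk1 gained, 6 without TFD replicate 2 and 5 without WT replicate 3. The mitosis count in TFD (4) was 1 when TFD and WT alone were fitted and 1 to 5 with 1 library left out, the 1 without WT replicate 3 and 2 without WT replicate 2 or TFD replicate 1. Leaving out a TFD library assumes the remaining one varies like the other groups. Between mutants, counts stayed at 0 except for Pcna, which DESeq2 called in TF against TFD (1 gene). The cause of these shifts was not tested.

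Mki67 in DF turned to 0.018 with an offset for gene length, and Pcna in TF to -0.054 with that offset. With 1 library left out Pcna in TF ranged from -0.026, without WT replicate 1, to 0.116, without WT replicate 3. None of these was called. With the replicate block the counts of replication and mitosis genes were 11 and 4 in DF, 6 and 2 in TF and 8 and 3 in TFD, and 0 between mutants, and Mcm2, Mcm7 and Ccnb1 were not called in TFD. Of 15 same-numbered pairs of libraries, 3 correlated above 0.1 in their deviations from the genotype means (range -0.299 to 0.247). Differently numbered pairs were not compared, so whether the replicate numbers pair the libraries was not settled. Of called members with WT, 11 of 13 kept the call under all 19 alternatives in DF, 4 of 8 in TF and 2 of 14 in TFD. With library totals 42.3% of calls in DF against WT were higher, against 55.9% as reported, and in DF against TF 13.9% against 28.1%. Over all genes, DF against TF had 723 calls, 1072 with DESeq2, 385, 169 and 252 without DF replicate 1, 2 and 3 and 341 without TF replicate 3. DF against TFD had 0, 258 with DESeq2 and 42 with the replicate block. TF against TFD had 2, 126 with DESeq2, 76 without TFD replicate 1, 26 without TF replicate 2, 8 without TFD replicate 2, 6 without TF replicate 1 and 0 in a fit of those groups alone.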
